A study of Mus musculus with 5 samples.

Results

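Collagens, laminins and integrins, with the matrix proteins decorin (Dcn), chondroadherin (Chad), Abi3bp and Timp3, were described in epithelial cells of the mouse trachea after transplantation of basal cells made from embryonic stem cells. The genes were taken by symbol: those starting with Col and a digit, with Lama, Lamb or Lamc and a digit, or with Itga or Itgb, plus the 4 matrix proteins. This gave 92 of the 30907 mouse features. Among them 5 carry a matching symbol but encode no collagen or integrin (Col4a3bp, Itgb1bp1, Itgb1bp2, Itgb3bp and Itgbl1). A second feature with the symbol Itgam is Gm49368 in the annotation. In epithelial cells, 83 of the 92 had at least 1 UMI (a count of 1 captured RNA molecule) and 61 had at least 10. The type IV collagens (6 of 6), the integrin alpha chains outside leukocytes (11 of 12), the integrin beta chains (6 of 6) and the laminin chains (9 of 11) were nearly all above that count. Of 11 fibrillar collagens 2 were, and of 6 type VI collagens 0 were.

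The donor-derived group holds GFP+ cells sorted from the tracheas of 2 adult wild-type 129X1/S1 mice, 1 taken 40 days and 1 taken 56 days after iBCs (basal cells derived from mouse ESCs) were instilled into a trachea injured hours earlier with the detergent polidocanol (n = 2 libraries). The endogenous group holds the GFP- cells of the same 2 tracheas (n = 2 libraries), which met the same injury and transplantation. The control is the trachea of 1 mouse of the same background without injury or transplantation, sorted on Calcein Blue alone, where recipient cells were sorted on Calcein Blue and GFP (n = 1 library). Each recipient was taken on 1 day, so day and recipient cannot be told apart.

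The basement membrane under the airway epithelium is a sheet of laminin and type IV collagen networks that basal cells bind. Laminins are trimers of an alpha, a beta and a gamma chain, and the laminin that anchors stratified epithelia holds Lama3 and Lamb3. The integrin of Itga6 and Itgb4 and the transmembrane collagen Col17a1 hold cells to it in hemidesmosomes, and Col7a1 forms the anchoring fibrils beneath. Type IV collagen chains assemble in set combinations, one of Col4a1 and Col4a2, one of Col4a3, Col4a4 and Col4a5, and one of Col4a5 and Col4a6. Integrins of Itgav with Itgb6 or Itgb8 bind latent TGF-beta.

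The 6 type IV collagen genes lie in 3 pairs that start back to back, and the upstream stretches of the pairs with called members are shown because the data give the 2 genes of each pair side by side. Of the 92 features, 64 matched a RefSeq promoter (GRCm38.p6). Col4a3 (plus strand, start 82586921) and Col4a4 (minus strand, start 82586849) are on chromosome 1 with 71 bases between their starts. That interval, chr1:82586850-82586920, is shown on the minus strand. Col4a5 (start 141475385, plus) and Col4a6 (start 141474076, minus) are on chromosome X with 1308 bases between their starts. The stretches next to each start are chrX:141474077-141474326 on the minus strand for Col4a6 and chrX:141475169-141475384 on the plus strand for Col4a5. Capitals mark CpG dinucleotides.
Col4a3 to Col4a4 interval: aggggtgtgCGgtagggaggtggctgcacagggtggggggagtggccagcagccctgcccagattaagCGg
Col4a6 upstream: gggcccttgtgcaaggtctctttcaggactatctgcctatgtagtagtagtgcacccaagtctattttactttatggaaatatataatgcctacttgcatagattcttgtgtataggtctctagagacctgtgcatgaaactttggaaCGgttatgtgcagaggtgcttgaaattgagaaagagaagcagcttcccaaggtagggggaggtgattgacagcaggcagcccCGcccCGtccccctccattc
Col4a5 upstream: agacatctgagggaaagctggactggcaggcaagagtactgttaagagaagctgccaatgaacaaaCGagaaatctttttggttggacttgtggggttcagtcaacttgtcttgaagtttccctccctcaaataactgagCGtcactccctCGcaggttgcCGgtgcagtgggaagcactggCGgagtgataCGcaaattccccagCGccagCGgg

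The interval between Col4a3 and Col4a4 held 69.0% G or C and 2 CpG, against medians of 54.9% and 2.0 over stretches of the same length in 32851 RefSeq promoters. The Col4a6 stretch held 47.6% G or C and 3 CpG (medians 52.4% and 6.0), and the Col4a5 stretch 52.3% and 8 CpG (medians 52.8% and 5.0). TATAAA and TGANTCA were searched on both strands and occurred in none of the 3 stretches. They are in 4.41% and 1.86% of promoters at the length of the Col4a3 to Col4a4 interval. GGGCGG occurred once in the Col4a6 stretch (32.7% of promoters hold it at that length), and CCAAT once in the Col4a5 stretch (30.8%). The Col4a1 and Col4a2 starts on chromosome 8 overlap by 22 bases, and no sequence is shown for them.

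The libraries held 1702 and 1743 barcodes with 25569394 and 21383107 UMIs (donor-derived, days 40 and 56), 1336 and 1243 barcodes with 17756037 and 17732266 UMIs (endogenous) and 808 barcodes with 16580940 UMIs (control, of which 192 barcodes were human-mapped and left out). Any 2 libraries shared at most 2 barcodes. Clusters made without the 92 genes gave 723 and 1099 basal-like cells in the donor-derived, 363 and 234 in the endogenous and 74 in the control library. Secretory-like cells numbered 654 and 472, 362 and 257, and 364, and ciliated-like cells 41 and 116, 230 and 181, and 155, in the same order. Basal markers (Krt5, Trp63 and 8 others, summed) were at 11500 and 7762 CPM (UMIs scaled to a common total of the class in its library) in donor-derived, 10390 and 8633 in endogenous and 11960 in control basal-like cells, with no marker at 0. Secretory markers summed in basal-like cells to 3915 and 9766, 11990 and 11490, and 14550 CPM. Donor-derived and endogenous cells of a class came mostly from different clusters. Donor basal-like cells were mostly in clusters 2 (led by Sftpc), 5 (Cxcl10), 7 (Clca3a2) and 8 (Tnc), with 14 and 4 in cluster 1. Endogenous basal-like cells were almost all in cluster 1. Among secretory-like cells, the donor-derived were mostly in clusters 3 and 4 and the endogenous in clusters 0 and 10. Cluster 0 also held 4 and 4 donor-derived cells and cluster 10 held 2 and 1. Cluster 3 scored highest for hillock markers, at a low score (0.154). It held 498 of 654 donor-derived secretory-like cells on day 40 and 78 of 472 on day 56. Donor-derived ciliated-like cells were mostly in cluster 11, which also held 11 and 6 endogenous and 17 control cells. Another 9 and 0 were in cluster 6, with most endogenous ciliated-like cells in clusters 6 and 13.

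In basal-like cells the 92 genes together took 0.302% and 0.358% of UMIs in donor-derived libraries, 0.35% and 0.388% in endogenous libraries and 0.349% in the control. Donor-derived and endogenous cells were compared with edgeR's quasi-likelihood test on UMIs summed per library and class, with p-values adjusted by Benjamini-Hochberg over all genes tested and a call at 0.05. The p-values rest on 2 libraries a group. This fit did not use the pairing of the libraries by recipient, and an alternative fit blocked the recipient. Of 41 members tested in basal-like cells, 15 were called: 6 higher (of all genes tested, 4.29% were) and 9 lower (6.76% were). Calls in either direction covered 11.0% of all genes tested. The median log2 difference of the members was 0.149, with Chad at its bound as well as at its fitted value, and that of all genes 0.001. Levels below are CPM of the class in a library, without further scaling, and log2 fold changes (donor-derived over endogenous, with SE) are from edgeR. A sum over cells does not tell fewer cells that express a gene apart from less RNA per cell.

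Of 6 type IV collagens tested, 2 rose, 1 fell and 3 were not called. Col4a4 (ENSMUSG00000067158, chromosome 1, 82448423 to 82586849, minus strand, GRCm38) was at 65.6 and 100 CPM in donor-derived basal-like cells, against 3.40 and 8.19 CPM in endogenous cells and 10.1 CPM in the control. Its neighbour Col4a3 (ENSMUSG00000079465, chromosome 1, 82586921 to 82722059, plus strand) was at 29.6 and 54.0 CPM in donor-derived cells, against 1.83 and 2.73 CPM in endogenous cells and 2.89 CPM in the control. Both rose, and for both every donor-derived library was above every other. The log2 fold change was 3.79 ± 0.42 for Col4a4 (edgeR adjusted p = 0.00518) and 4.11 ± 0.46 for Col4a3 (edgeR adjusted p = 0.00361). Col4a3, Col7a1, Lama3 and Timp3 share exon bases with C430014B12Rik, Mir711, Gm29200 and Syn3, in that order, and the sources do not state whether counting used strand.

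Col4a6, the partner of Col4a5 in epithelial basement membranes, fell. It was at 1.13 and 0.736 CPM in donor-derived cells, against 7.06 and 4.68 CPM in endogenous cells and 10.1 CPM in the control (log2 fold change -2.80 ± 0.47, edgeR adjusted p = 0.0103). Col4a5, which starts 1308 bases from it, was at 33.5 and 24.7 CPM in donor-derived libraries, against 33.2 and 19.5 in the endogenous pair and 24.6 in the control, and the groups overlapped (log2 fold change -0.01, edgeR adjusted p = 0.995). Col4a1 and Col4a2, the chains of the most widespread network, were at 7.23 CPM or less in every library of basal-like cells and were not called. A UMI of Col4a4 was found, after thinning each cell to 5000 UMIs, in 24.6% (exact binomial 95% interval 21.5 to 27.9) and 37.9% (35.0 to 40.9) of donor-derived basal-like cells. In endogenous basal-like cells the share was 1.73% (0.639 to 3.74) and 5.22% (2.73 to 8.94), and in the control 4.05% (0.844 to 11.4). The immune cells of the endogenous libraries, which should lack it, had 0.571% and 0.322% (median depth 8084 and 8317 UMIs, against 10679 and 8970 in donor-derived basal-like cells). These intervals cover counting error only.

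Of 7 laminin chains tested, 2 rose and 0 fell. Lama3, the alpha chain of the anchoring laminin, was at 83.7 and 53.8 CPM in donor-derived cells, against 23.3 and 22.6 CPM in endogenous cells and 10.1 CPM in the control (log2 fold change 1.46 ± 0.25, edgeR adjusted p = 0.0122). Its partner Lamb3 was at 217.5 and 190.9 CPM in donor-derived libraries, against 182 and 190.2 in the endogenous pair and 179.3 in the control, and the groups nearly touched (log2 fold change 0.01, edgeR adjusted p = 0.983). Lamb1, the beta chain of laminins of early and vascular basement membranes, was at 36.2 and 23.6 CPM in donor-derived libraries, against 9.93 and 10.9 in the endogenous pair and 17.4 in the control and rose (1.4 ± 0.27, edgeR adjusted p = 0.018). Lama5, Lamb2 and Lamc1, the chains of the broadly present epithelial laminins, were not called, with log2 fold changes of 0.39, 0.35 and 0.10.

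Among integrins, Itgb6 and Itga9 rose and Itgb8 fell. Itgb6 was at 124.2 and 60.0 CPM in donor-derived cells, against 18.0 and 19.1 CPM in endogenous cells and 20.2 CPM in the control (log2 fold change 2.19 ± 0.43, edgeR adjusted p = 0.0471). Itgb8 (ENSMUSG00000025321, chromosome 12, 119158022 to 119238802, minus strand), the other beta chain that binds latent TGF-beta with Itgav, was at 1.02 and 0.46 CPM in donor-derived libraries, against 9.93 and 21.4 in the endogenous pair and 2.89 in the control (-4.51 ± 0.55, edgeR adjusted p = 0.00359). That control value rests on 2 UMIs. Its exact Poisson 95% interval of 0.35 to 10.4 CPM covers the day 40 endogenous and both donor-derived levels. Itgav, the alpha chain of Itgb6 and Itgb8, was at 86.4 and 88.6 CPM in donor-derived libraries, against 50.2 and 68.2 in the endogenous pair and 50.6 in the control, and was not called (0.45, edgeR adjusted p = 0.155). Itga9, whose integrin binds tenascin, was at 26.0 and 39.8 CPM in donor-derived libraries, against 7.32 and 10.1 in the endogenous pair and 13.01 in the control (1.82 ± 0.29, edgeR adjusted p = 0.00968). Itga2, the collagen-binding alpha chain, was at 55.9 and 18.7 CPM in donor-derived libraries, against 9.93 and 8.58 in the endogenous pair and 5.78 in the control. Both donor-derived libraries were higher and lay far apart from each other (1.86 ± 0.69, edgeR adjusted p = 0.227, and 0.0132 when the recipient was blocked). The hemidesmosome integrin chains Itga6 and Itgb4, with log2 fold changes of 0.29 and -0.07, and Itga3, Itgb1, Itgb5 and Itga5, with 0.15, 0.31, 0.11 and 0.04, were not called.

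Collagens outside type IV that were called all fell. Col8a1 (ENSMUSG00000068196, chromosome 16, 57624258 to 57754737, minus strand), a short network-forming collagen, was at 0.226 and 0.552 CPM in donor-derived cells, against 18.6 and 18.3 CPM in endogenous cells and 10.1 CPM in the control. Its log2 fold change was -5.58 ± 0.39 (edgeR adjusted p = 0.000287). The transmembrane collagen Col25a1 had 1 and 0 UMIs in donor-derived and 11 and 11 UMIs (2.88 and 4.29 CPM) in endogenous basal-like cells. The control had 0 UMIs, and the exact Poisson 95% interval of that count reached 5.33 CPM, above both endogenous levels. The summed level of Col25a1 was 68.0-fold lower in donor-derived than in endogenous cells, and counting error put that ratio between 11.0 and 2805 (edgeR adjusted p = 0.00747). Col7a1 was at 10.2 and 11.8 CPM in donor-derived libraries, against 38.7 and 25.7 in the endogenous pair and 34.7 in the control (-1.69 ± 0.24, edgeR adjusted p = 0.00507). The fibril-associated Col16a1 (-1.92 ± 0.29, edgeR adjusted p = 0.00668) and Col12a1 (-1.57 ± 0.33, edgeR adjusted p = 0.0244) were at 2.71 to 5.15 CPM in donor-derived and 7.02 to 15.4 CPM in endogenous cells. Col17a1 fell, at 127 and 124.6 CPM in donor-derived libraries, against 187.2 and 164.9 in the endogenous pair and 164.8 in the control (-0.61 ± 0.13, edgeR adjusted p = 0.0274). Col18a1, a basement membrane collagen, was not called (0.93, edgeR adjusted p = 0.213).

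The matrix protein Abi3bp fell in basal-like cells. Abi3bp (ENSMUSG00000035258, chromosome 16, 56477878 to 56690135, plus strand) was at 23.6 and 9.10 CPM in donor-derived cells, against 878.7 and 1010 CPM in endogenous cells and 844.2 CPM in the control. The groups were far apart (log2 fold change -5.99 ± 0.57, edgeR adjusted p = 0.00964). The donor-derived values include 14 and 4 cells of cluster 1, where the endogenous cells are. How much of the donor-derived Abi3bp came from these cells was not tested. After thinning, 4.33% (2.96 to 6.09) and 2.08% (1.31 to 3.13) of donor-derived basal-like cells held a UMI of it, against 90.5% (86.9 to 93.3) and 92.6% (88.4 to 95.6) of endogenous and 86.5% (76.6 to 93.3) of control cells. Immune cells of the endogenous libraries held one in 1.71% and 0.965%. In the donor-derived libraries themselves, 0 of 41 and 0 of 110 ciliated-like cells held one, which allows shares of up to 7.32% and 2.73%. Dcn, a proteoglycan of collagen fibrils, was at 444.8 and 666.4 CPM in donor-derived libraries, against 639.4 and 722 in the endogenous pair and 670.8 in the control, and was not called (-0.42, edgeR adjusted p = 0.287). Timp3, a matrix-bound inhibitor of metalloproteinases, was at 409.2 and 880.1 CPM in donor-derived libraries, against 369.9 and 523.9 in the endogenous pair and 399 in the control, with groups that overlapped (0.41, edgeR adjusted p = 0.687).

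Chad (ENSMUSG00000039084, chromosome 11, 94565047 to 94569127, plus strand), a leucine-rich protein of cartilage, had 0 and 0 UMIs in donor-derived basal-like cells. Endogenous cells had 46 and 135 UMIs (12.03 and 52.6 CPM) and control cells 14.5 CPM. Taken against a floor of 3 UMIs over the donor-derived group, the level was at least 186.4-fold lower in donor-derived cells. The upper 95% counting limit of the donor-derived over endogenous ratio was 0.00667. The gene was not called (edgeR adjusted p = 0.13), and was when the recipient was blocked (2.14e-05). A single cell of the day 56 endogenous library held 103 of its 135 UMIs. That cell had 379 UMIs of 6 of the 7 chondrocyte markers and none of Krt5 or Epcam. In basal-like cells of the other 4 libraries the chondrocyte markers summed to 0 to 0.113 CPM. Without that cell and 1 cell with 127 UMIs of smooth muscle markers, Chad was at 12.03 and 12.5 CPM in endogenous cells, and the donor-derived level was at least 80.5-fold lower (edgeR adjusted p = 0.000598). The count of called members was then 16. No other member changed its call. The lack of Chad was not confined to basal-like cells. Donor-derived ciliated-like cells had 0 UMIs of it too, and endogenous ciliated-like cells 41 over both days (6.995 CPM pooled). The upper 95% counting limit of that ratio was 0.244, and Chad was too low for the main test there. After thinning, 3.08% and 0% of endogenous ciliated-like cells held a UMI of Chad (days 40 and 56). The shares of endogenous basal-like cells were 6.07% and 4.78%.

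**Figure D1:**
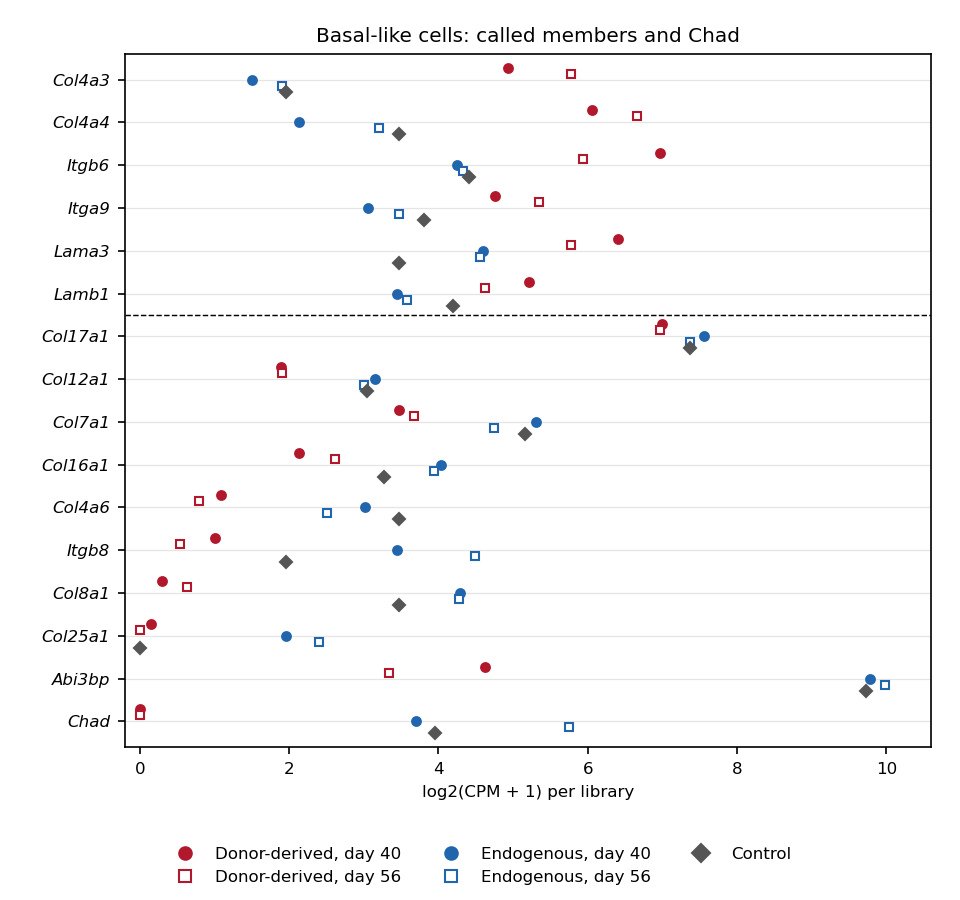
Levels of the called members and of Chad in basal-like cells, 1 dot per library, on a log2(CPM + 1) axis, for donor-derived, endogenous and control libraries. Above the dashed line the 2 donor-derived dots lie right of the endogenous and control dots, as for Col4a4 at 65.6 and 100 against 3.40 and 8.19 CPM, and below it they lie left of the endogenous dots, as for Abi3bp at 23.6 and 9.10 against 878.7 and 1010 CPM.

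Many calls in basal-like cells rested on having both endogenous libraries. Of the tested members, 4 were called when the day 40 endogenous library was left out and 5 when the day 56 one was. Leaving out either donor-derived library gave 20. Without the day 40 endogenous library, the edgeR adjusted p was 0.073 to 0.303 for Col4a3, Itgb6, Itga9, Lama3, Lamb1, Abi3bp, Col4a6, Col16a1, Col7a1, Col12a1 and Col17a1. Without the day 56 endogenous library it was 0.0581 to 0.25 for the same genes except Col7a1, and Col25a1 was too low to be tested without either. Col4a4, Col8a1 and Itgb8 kept their calls in every alternative. Their log2 fold changes moved by more than 1.5-fold without 1 library: Col4a4 to 4.49 without the day 56 endogenous, Col8a1 to -6.32 without the day 56 donor-derived, and Itgb8 to -5.10 without the day 40 donor-derived and -3.87 without the day 56 endogenous library. Abi3bp moved to -6.82 and Itgb6 to 1.57 without the day 40 donor-derived library, and Col25a1 to -7.42 and -4.79 without the day 40 and the day 56 donor-derived library. Itgb6 was also not called at clustering resolutions of 0.5 and 2.0 (1.52, edgeR adjusted p = 0.101, and 1.10, edgeR adjusted p = 0.272), with doublets kept (0.0604) and with the 92 genes among the clustering genes (0.0802). Lama3 was not called at resolution 2.0 (0.65, edgeR adjusted p = 0.162). Col17a1 was not called without cluster 2 (-0.31, edgeR adjusted p = 0.256) or without TMM scaling (0.0577), and Col12a1 not by DESeq2 (0.102).

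In secretory-like cells 10 of 32 members were called, 7 higher (of all genes tested, 6.3% were) and 3 lower (7.88% were). Calls in either direction covered 14.2% of all genes. The median log2 difference of the members was 0.285, against -0.008 for all genes. The genes that rose included the laminin chains Lamb1, Lama5 and Lamb2, with Col4a4, Itgb6 and Timp3. The genes that fell were Chad, Abi3bp and Col17a1.

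Lamb1 (ENSMUSG00000002900, chromosome 12, 31265234 to 31329644, plus strand) was at 12.8 and 12.9 CPM in donor-derived secretory-like cells, against 0.905 and 0.172 CPM in endogenous cells and 0.62 CPM in the control. Every donor-derived library was above the others (log2 fold change 4.19 ± 0.46, edgeR adjusted p = 0.00115). Lama5 was at 51.3 and 41.1 CPM in donor-derived libraries, against 21.1 and 15.3 in the endogenous pair and 21.1 in the control (1.03 ± 0.17, edgeR adjusted p = 0.00599). Lamb2 rose too, at 76.3 and 65.2 CPM in donor-derived libraries, against 34.8 and 36.04 in the endogenous pair and 35.5 in the control (0.68 ± 0.13, edgeR adjusted p = 0.0129). Lama3 was at 33.9 and 9.97 CPM in donor-derived libraries, against 2.26 and 0.687 in the endogenous pair and 0.827 in the control. Its groups did not overlap, and its call depended on the pairing (3.51 ± 0.87, edgeR adjusted p = 0.0941, and 0.000856 when the recipient was blocked). Lamb3 was not called (0.46, edgeR adjusted p = 0.525).

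Col4a4 was at 9.89 and 17.1 CPM in donor-derived libraries, against 1.21 and 0.858 in the endogenous pair and 1.65 in the control (log2 fold change 3.40 ± 0.49, edgeR adjusted p = 0.00585). Col4a3 had 41 UMIs in donor-derived and 2 in endogenous cells and was too low to be tested. Its summed level was 14.1-fold higher, with a counting interval of 3.66 to 120.2. Itgb6 (ENSMUSG00000026971, chromosome 2, 60598292 to 60722643, minus strand) was at 92.4 and 37.4 CPM in donor-derived libraries, against 5.88 and 4.63 in the endogenous pair and 3.10 in the control (3.28 ± 0.48, edgeR adjusted p = 0.0206). Timp3 was at 208.2 and 234.2 CPM in donor-derived libraries, against 63.2 and 81.3 in the endogenous pair and 138.7 in the control (1.31 ± 0.21, edgeR adjusted p = 0.00808), with the control between the groups. Itgav and Itga6 were called when the recipient was blocked (edgeR adjusted p = 0.0233 and 0.0277) and not without it (0.0631 and 0.138), with log2 fold changes of 0.72 and 0.64.

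Chad fell in secretory-like cells. It was at 0.999 and 0.615 CPM in donor-derived secretory-like cells, against 125 and 111 CPM in endogenous cells and 87.4 CPM in the control. The summed level was 143.2-fold lower, with a counting interval of 86.5 to 256.5 (log2 fold change -7.45 ± 0.21, edgeR adjusted p = 7.31e-06). The donor-derived libraries held 10 and 5 UMIs of Chad in these cells. Of the donor-derived cells, 4 and 4 were in cluster 0, and their part in the UMIs of Chad was not tested. After thinning, 0.157% and 0% of donor-derived secretory-like cells held a UMI (1 of 638 and 0 of 460 cells, the second of which allows up to 0.652%). In endogenous cells 36.4% (31.3 to 41.7) and 29.96% (24.4 to 35.96) did, and in control cells 30.5% (25.8 to 35.5). Immune cells of the endogenous libraries held 0 of 175 and 0 of 311. Chad was at 144.5 and 116.8 CPM in the larger endogenous cluster 0 and at 40.9 and 70.9 CPM in cluster 10.

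Abi3bp was at 3.10 and 0.246 CPM in donor-derived libraries, against 57.3 and 46.5 in the endogenous pair and 65.5 in the control (log2 fold change -5.19 ± 0.68, edgeR adjusted p = 0.0219). Col17a1 was at 2.00 and 0.861 CPM in donor-derived libraries, against 11.6 and 3.60 in the endogenous pair and 6.82 in the control (-2.69 ± 0.63, edgeR adjusted p = 0.0414). Both were higher in basal-like than in secretory-like cells in every library. The basal marker Krt5 in secretory-like cells was at 18.4 and 20.3 CPM in donor-derived libraries, against 141 and 76.4 in the endogenous pair and 133.1 in the control. Its log2 fold change was -2.78. That of Krt14, another basal marker, had the opposite sign and was not called (2.10 ± 0.81, edgeR adjusted p = 0.237). Cluster 10 scored highest for secretory markers (0.425) and had the basal marker Aqp3 among its leading genes. Abi3bp in cluster 10 was at 291.5 and 396.6 CPM in the endogenous pair and 305.1 CPM in the control. Whether basal RNA or cells account for either fall was not tested. In cluster 0 Abi3bp was at 5.74 and 4.84 CPM in the endogenous pair and 7.45 CPM in the control. Without cluster 10 the log2 fold change of Abi3bp was -2.06 (edgeR adjusted p = 0.192), and Col17a1 was too low to be tested. Col4a6 was called when the recipient was blocked (edgeR adjusted p = 0.0343) and not without it (0.0599).

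**Figure D2:**
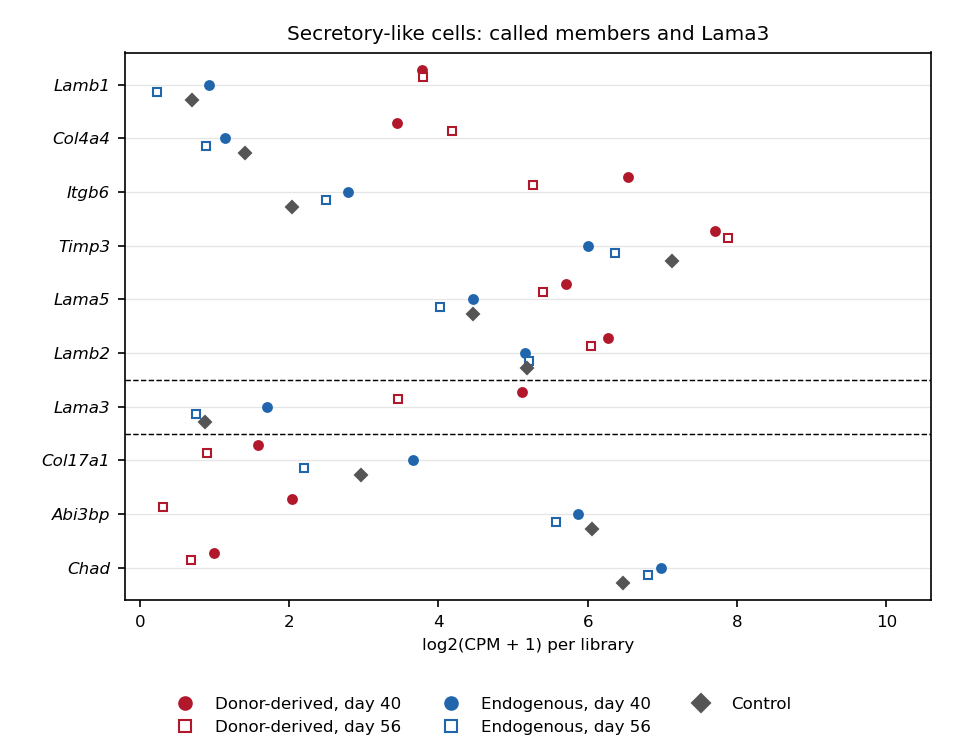
Levels of 9 called members and of Lama3 in secretory-like cells, 1 dot per library, on a log2(CPM + 1) axis. Donor-derived dots lie right of the others for the laminin chains, as for Lamb1 at 12.8 and 12.9 against 0.905 and 0.172 CPM, and far left for Chad, at 0.999 and 0.615 against 125 and 111 CPM.

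In secretory-like cells 4 members were called when either endogenous library was left out, and 15 when either donor-derived library was. Without the day 40 endogenous library, the edgeR adjusted p was 0.0578 to 0.303 for Timp3, Col4a4, Lamb2, Col17a1, Itgb6 and Abi3bp. Without the day 56 endogenous library it was 0.0591 to 0.25 for Lama5, Col4a4, Lamb2, Itgb6 and Abi3bp. Col17a1 was also not called without the day 40 or the day 56 donor-derived library (0.0979 and 0.101), without TMM scaling (0.0604) or with doublets kept (0.258). Abi3bp was not called at resolution 0.5 (-2.20, edgeR adjusted p = 0.166) or without the filter on low counts (0.0676). Lamb1 and Chad were called in every alternative. The log2 fold change of Lamb1 was 5.76 without the day 40 endogenous library, 3.56 without the day 56 one and 9.40 without cluster 10. That of Abi3bp was -7.79 and -4.45 without the day 40 and the day 56 donor-derived library, that of Col17a1 -3.30 without the day 40 donor-derived and -1.69 without the day 40 endogenous library, and that of Itgb6 2.64 without the day 40 donor-derived library. Without cluster 3, Itgb6 was at 2.07 and Abi3bp at -6.34, and with doublets kept Itgb6 was at 2.08, Timp3 at 2.49, Col4a4 at 3.99 and Abi3bp at -7.54, all still called. A mitochondrial limit of 10% put Itgb6 at 2.42, Abi3bp at -5.85 and Col17a1 at -3.59. Resolution 0.5 put Lamb1 at 6.50 and Col4a4 at 4.19, resolution 2.0 put Abi3bp at -6.24, and the 92 genes among the clustering genes put Col17a1 at -1.98. Col4a4 without cluster 10 was at 4.13, and its call held.

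In ciliated-like cells 2 of 24 members were called, 0 higher (of all genes tested, 1.81% were) and 2 lower (1.71% were), with 3.51% of all genes called. The median log2 difference of the members was -0.128, also with Lama4 at its bound, and that of all genes 0.007. Lama4, an alpha chain otherwise known from vessels and mesenchyme, had 0 and 0 UMIs in donor-derived cells, against 27 and 17 UMIs (8.75 and 6.12 CPM) in endogenous cells and 7.95 CPM in the control (edgeR adjusted p = 0.0409). Taken against a floor of 3 UMIs over the donor-derived group, its level was 5.66-fold lower or more. The upper 95% counting limit of its donor-derived over endogenous ratio was 0.227. The fibrillar collagen Col27a1 was at 8.55 and 0.693 CPM in donor-derived libraries, against 35.0 and 32.8 in the endogenous pair and 25.1 in the control (log2 fold change -3.27 ± 0.59, edgeR adjusted p = 0.0339). Its donor-derived values rest on 7 and 1 UMIs. Cluster 6, of mostly endogenous and control cells, held 9 and 0 donor-derived cells. Their part in the Col27a1 level was not tested. Neither gene was called without the day 56 endogenous library (edgeR adjusted p = 0.257 for Lama4 and 0.28 for Col27a1) and Col27a1 was not called without the day 40 one (0.396), where Lama4 was too low to be tested. DESeq2 gave 0.0896 for Lama4. Without the day 40 and the day 56 donor-derived library Col27a1 was at -5.60 and -2.03 and called, and 7 and 4 members were called. Timp3 was called when the recipient was blocked (edgeR adjusted p = 0.03) and not without it (0.506). The groups overlapped for Lama5, at 53.7 and 40.9 CPM in donor-derived libraries, against 51.2 and 45.7 in the endogenous pair and 42.8 in the control.

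The donor-derived against endogenous difference was then compared between basal-like and secretory-like cells by the class-by-group term of 1 edgeR fit, with the library as a fixed term. Of 42 members tested 5 were called, all with a lower donor-derived over endogenous ratio in basal-like than in secretory-like cells, while 2.14% of all genes tested were called higher and 2.11% lower (4.25% in all). For Lamb1 and Itgb6 both classes rose and secretory-like cells rose more: the basal-like minus secretory-like difference of the log2 fold changes was -2.78 ± 0.63 for Lamb1 (edgeR adjusted p = 0.0312) and -1.07 ± 0.22 for Itgb6 (edgeR adjusted p = 0.0124). Timp3 (-0.99 ± 0.22, edgeR adjusted p = 0.0402) rose in secretory-like cells and was not called in basal-like cells. Itgb8 (-3.02 ± 0.66, edgeR adjusted p = 0.0158) fell in basal-like cells and in secretory-like cells was at 0.999 and 0.861 CPM in donor-derived libraries, against 1.51 and 2.57 in the endogenous pair and 0.207 in the control.

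None of the 5 differences held in all alternatives. DESeq2 called 1 (Timp3, adjusted p = 0.0478), and without cluster 3 the difference was -0.03 for Itgb6 and -1.39 for Itgb8. Without the day 56 endogenous library the edgeR adjusted p was 0.0686 for Lamb1, 0.092 for Itgb6 and 0.0544 for Timp3. Leaving out the day 40 endogenous library put Lamb1 at -4.43, and leaving out the day 56 one at -2.11. Itgb8 was at -3.69 without the day 40 donor-derived library. Members called numbered 9 and 14 without the day 40 and the day 56 donor-derived library.

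**Figure D3:**
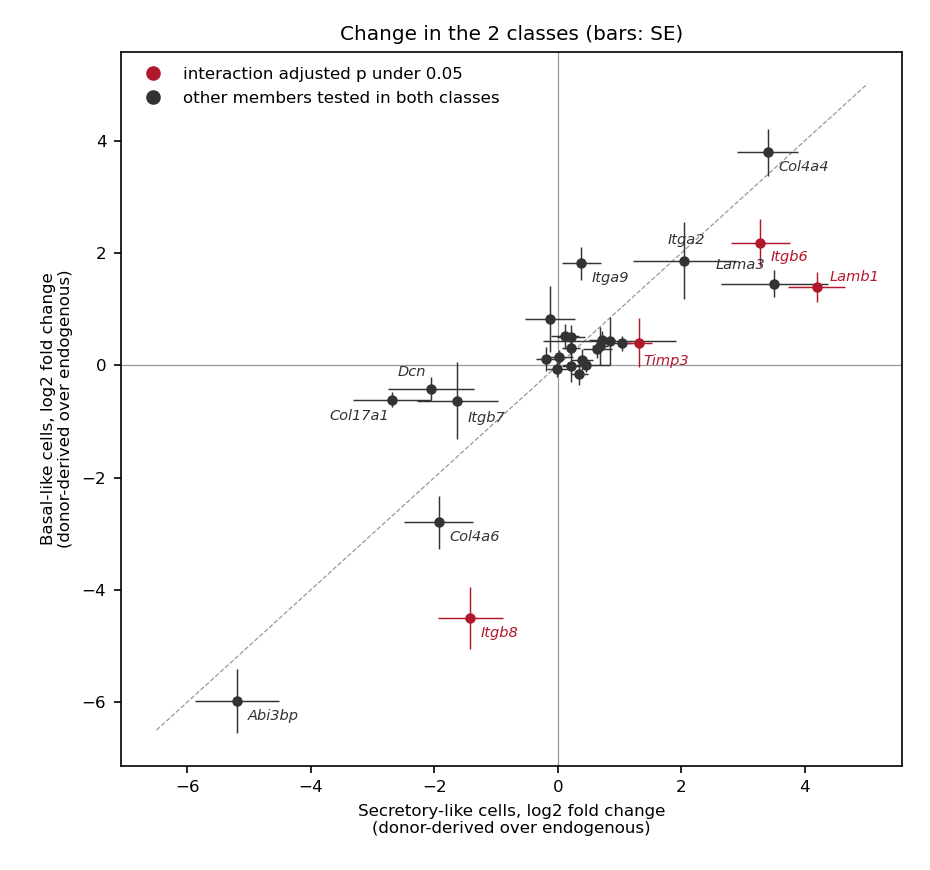
Log2 fold change of donor-derived over endogenous cells in basal-like cells (y axis) against that in secretory-like cells (x axis) for 29 members tested in both, with SE bars, and the members whose difference between the classes was called in red. The red points, such as Lamb1 at 1.4 and 4.19, lie below the diagonal.

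Levels were also compared between cell types within a library, on plain CPM. Of 33 members that reached 20 CPM in any of the 3 classes, 25 were higher in basal-like than in secretory-like cells in all 5 libraries, where 59.7% of all genes at that level were. Only Chad was the other way round (7.76% of all genes were). The 25 include Col17a1, Lama3, Lamb3, Itga6, Itgb4, Itga3, Itgb1, Dcn and Abi3bp. In the control, Col17a1 was at 164.8 CPM in basal-like and 6.82 CPM in secretory-like cells, and Dcn at 670.8 and 31.4 CPM. Against ciliated-like cells, 22 of 33 were higher in basal-like cells in all 5 libraries (28.4% of all genes) and 3 were lower (35.6% of all genes), Itgb3bp, Itgal and Itgb7. The integrin chains Itgal and Itgb7 are known from leukocytes. In ciliated-like cells Itgal was at 14.7 and 33.9 CPM in donor-derived libraries, against 22.4 and 19.1 in the endogenous pair and 16.5 in the control. It had 0 UMIs in every library of basal-like and secretory-like cells. Itgb2, with which Itgal pairs in leukocytes, had 0 UMIs in ciliated-like cells of 4 libraries and 1.08 CPM in the day 56 endogenous library.

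Levels of a few members, chosen after their values were seen, are given by cluster of the donor-derived basal-like cells. In cluster 8, led by Tnc, Col17a1 was at 240 and 232.5 CPM on days 40 and 56, against 36.4 and 69.4 CPM in cluster 2, led by Sftpc. Itga6 was at 314.9 and 230.8 CPM in cluster 8 and 94.9 and 132.7 CPM in cluster 2. Lama3 was at 160.2 and 86.8 CPM in cluster 8 and 24.7 and 32.5 CPM in cluster 2. Itgb6 and Itga2 had the same order on both days, with Itgb6 at 221.1 and 121.2 CPM in cluster 8 and 42.9 and 33.0 CPM in cluster 2. Dcn ran the other way, at 149.7 and 348.7 CPM in cluster 8 and 774.8 and 886.1 CPM in cluster 2. Col4a4 was at 55.2 to 111.1 CPM in all 4 clusters on both days, each above the 8.27 CPM or less of endogenous cluster 1. Cluster 2 made up 78 of 723 basal-like cells on day 40 and 597 of 1099 on day 56. These clusters were made without the 92 genes, and no test was run between them.

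**Figure D4:**
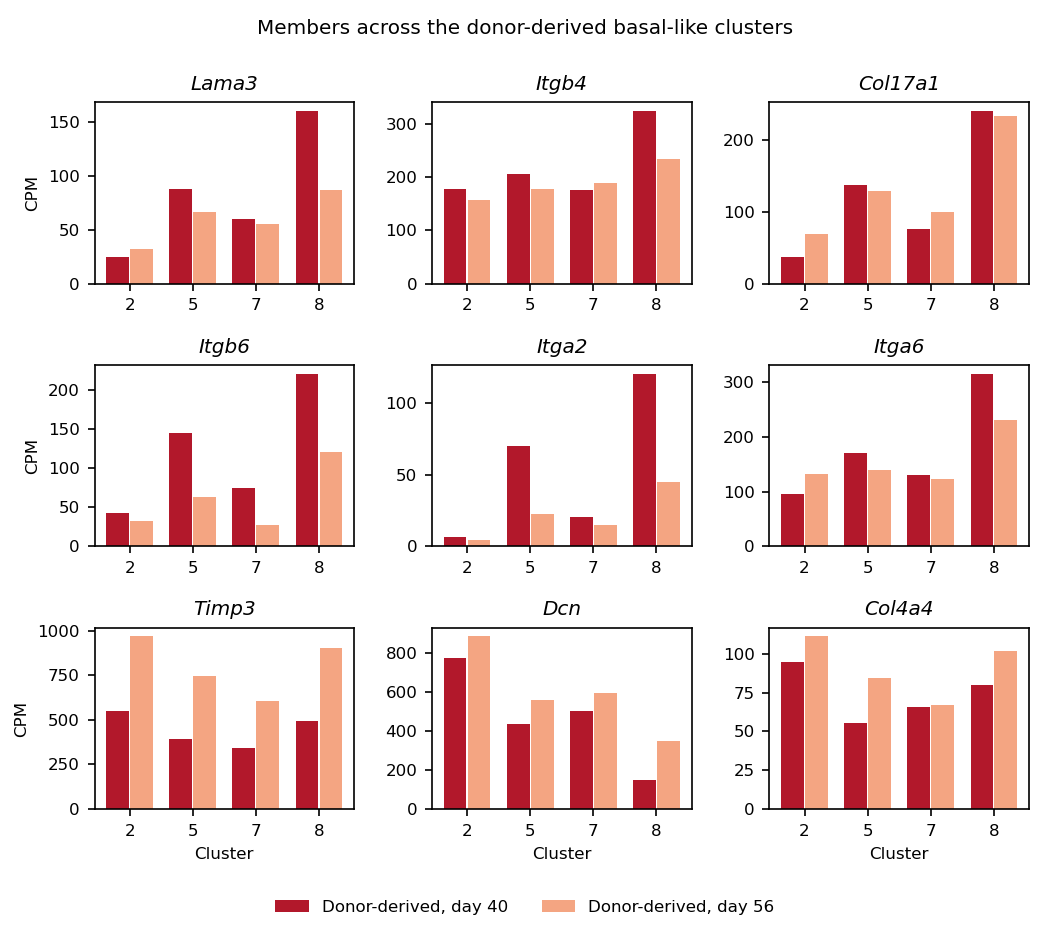
Levels in CPM of 9 members in the 4 clusters of donor-derived basal-like cells, with a bar for each day. Lama3, Col17a1, Itgb6, Itga2 and Itga6 are highest in cluster 8 on both days, and Dcn is highest in cluster 2, at 774.8 and 886.1 CPM.

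Between the 2 days there is 1 library per group and day, so differences have no replicate check. They were counted at 2-fold or more on TMM-scaled CPM. In donor-derived basal-like cells, 2 of 26 members were higher on day 56 (of all genes, 0.96% were), Timp3 and Itga1, and 3 were lower (2.47% were), Itgb6, Itga2 and Abi3bp. Itga1, a collagen-binding alpha chain, was at 12.9 CPM on day 40 and 36.4 CPM on day 56. In donor-derived secretory-like cells 3 of 16 were lower on day 56 (3.18% of all genes), Itgb6, Itga2 and Lama3, and 0 were higher (0.971%). At a clustering resolution of 0.5, 2 of 14 were lower, and at 2.0, 0 of 11 were. Cluster 3 made up 498 of 654 of these cells on day 40 and 78 of 472 on day 56. Whether this mix accounts for the day differences was not tested. In donor-derived ciliated-like cells, with 41 cells on day 40, 1 of 16 was higher (2.67% of all genes), Itgal. Lower were 5 of 16 (6.01%), Itgb6, Timp3, Lamb2 and Itgb7 among them. In endogenous cells, Chad and Itgb8 were higher on day 56 in basal-like cells (2 of 22 members, with 0.646% of all genes), and without the cell with chondrocyte markers only Itgb8 was. At clustering resolutions of 0.5 and 2.0 only Chad was. Lamb3 was lower in endogenous secretory-like cells (1 of 14, with 0.252% of all genes), and 0 of 14 differed in endogenous ciliated-like cells.

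Against the control, which is 1 library and gives no test, members were counted that were at least 2-fold apart in both libraries of a group on TMM-scaled CPM. In donor-derived basal-like cells 6 of 27 were higher (of all genes, 6.51% were), Col4a4, Col4a3, Itgb6, Itga9, Itga2 and Lama3, and 2 were lower (4.55% were), Col7a1 and Abi3bp. In endogenous basal-like cells 1 of 21 was higher (1.85% of all genes), Lama3, at 23.3 and 22.6 CPM against 10.1 CPM (exact Poisson 95% interval of the control 4.07 to 20.9), and 0 were lower (0.659%). In donor-derived secretory-like cells 2 of 16 were higher (7.39%), Itgb6 among them, and 3 lower (4.83%), Dcn, Chad and Abi3bp. In secretory-like cells Dcn was at 2.60 and 7.38 CPM in donor-derived libraries, against 22.5 and 11.2 in the endogenous pair and 31.4 in the control. Its donor-derived against endogenous difference was not called (log2 fold change -2.05 ± 0.69, edgeR adjusted p = 0.17). In endogenous secretory-like cells 0 of 14 differed either way (1.37% and 0.149% of all genes). In donor-derived ciliated-like cells Itgav and Lama3 were higher (3.5%) and Col27a1 lower (2.87%) of 15, and in endogenous ones Itgav was higher (1.12%) and Timp3 lower (0.568%) of 14. The control differed from both recipient groups in its sort and in the human-mapped barcodes it held.

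Genes that work with the members were counted in the same fits, where 4.29% of all genes tested were called higher and 6.76% lower in basal-like cells, and 6.3% higher and 7.88% lower in secretory-like cells. Of 9 basement membrane partners tested in basal-like cells 2 rose, Npnt and Dag1, and 2 fell, Fras1 and Smoc2. Npnt, an integrin ligand of basement membranes, was at 63.6 and 82.0 CPM in donor-derived libraries, against 10.2 and 8.58 in the endogenous pair and 11.6 in the control (log2 fold change 2.81 ± 0.21, edgeR adjusted p = 0.000396), and it rose in secretory-like cells too (2.05 ± 0.25, edgeR adjusted p = 0.00279). In secretory-like cells 4 of 6 rose, Npnt, Ntn4, Dag1 and Agrn, and 0 fell. Of 8 genes listed as hemidesmosome partners, a list that takes in wider adhesion genes, Fermt1 rose and Cd9 fell in basal-like cells. The other genes on that list were not called there. Krt5 and Dst fell in secretory-like cells. Of 20 focal adhesion partners, 4 rose in basal-like cells, Zyx, Flna, Vcl and Actn1, and Tln2 fell, while of 19 in secretory-like cells 2 rose, Vcl among them, and Tln2 and Bcar1 fell. In basal-like cells Npnt and Fras1 were called in every alternative. The other partners named so far were each not called there when 1 of the endogenous libraries was left out, and Zyx, Flna, Vcl and Actn1 not at either other clustering resolution. In secretory-like cells Npnt, Vcl and Tln2 were called in every alternative. Without the day 40 endogenous library the edgeR adjusted p was 0.167 for Ntn4, 0.0584 for Dag1 and 0.104 for Agrn there. Krt5 was not called at resolution 0.5 (0.682), without cluster 10 (0.515), without cluster 3 (0.0934), with doublets kept (0.208) or at a mitochondrial limit of 10% (0.112). It was also not called without the day 40 or the day 56 donor-derived library (0.225 and 0.131). Dst was not called at resolution 0.5 (0.09997), without cluster 10 (0.157), without TMM scaling (0.0817), without either donor-derived library (0.117 for day 40 and 0.0718 for day 56) or without the day 40 endogenous library (0.074). Bcar1 was not called without either endogenous library (0.0636 for day 40 and 0.177 for day 56), without TMM scaling (0.159) or by DESeq2 (0.106).

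Of 18 collagen processing genes, P4ha2 and Colgalt1 rose and Loxl4 and Serpinh1 fell in basal-like cells. Serpinh1, the collagen chaperone, was at 3.39 and 10.2 CPM in donor-derived libraries, against 80.0 and 101 in the endogenous pair and 89.6 in the control (log2 fold change -3.82 ± 0.53, edgeR adjusted p = 0.022, and 0.158 or 0.159 when the day 40 or day 56 endogenous library was left out). In secretory-like cells it fell as well (-5.27 ± 0.54, edgeR adjusted p = 0.00498), with P3h1, P3h3 and Sec23a, and Colgalt1 rose (17 tested). Of 16 other matrix glycoproteins and proteoglycans in basal-like cells, Vcan rose and Fbn1, Fbn2, Fbln1 and Efemp1 fell. Vcan was at 42.1 and 32.6 CPM in donor-derived libraries, against 0 and 0.78 in the endogenous pair and 0 in the control (edgeR adjusted p = 0.000758). In secretory-like cells Vcan, Thbs1, Ecm1 and Fn1 rose and Fbn1 and Fbln5 fell (8 tested). Of 14 proteases and inhibitors Mmp15, Mmp14 and Timp2 rose and Mmp2 and Adamts5 fell in basal-like cells, and of 12 in secretory-like cells Mmp11, Mmp15 and Timp2 rose and Adamts5 and Ctsl fell. In ciliated-like cells the lists gave 1 call each way or fewer. Thbs1 fell there, at 29.3 and 22.9 CPM in donor-derived libraries, against 85.3 and 119.2 in the endogenous pair and 58.7 in the control (-2.06 ± 0.24, edgeR adjusted p = 0.00637), whereas in secretory-like cells it rose (3.95 ± 0.26, edgeR adjusted p = 0.000113), and the difference between these 2 classes was not tested. Without cluster 3 Thbs1 was not called in secretory-like cells (edgeR adjusted p = 0.474). Among the genes of these 3 lists, Vcan, Fbln1 and Loxl4 in basal-like cells, Vcan and Serpinh1 in secretory-like cells and Thbs1 in ciliated-like cells were called in every alternative. Each other gene named from them was not called or too low to be tested in at least 1.

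Markers of other cell types were read beside these results. The collagens of fibroblasts were near 0 in the epithelial classes: Col1a1 and Col3a1 had 0 UMIs and Col1a2 had 1 UMI over all basal-like libraries. In basal-like cells fibroblast markers summed to 1.24 and 0.828 CPM in donor-derived libraries, against 2.61 and 3.12 in the endogenous pair and 0 in the control, with 5 to 8 of the 8 markers at 0. The 20 fibroblast-like cells of the day 56 endogenous library held Col3a1 at 3042 CPM, Col1a2 at 2747 CPM, Col1a1 at 1439 CPM and Dcn at 11880 CPM. Among leukocyte integrins, Itgam and Itgal had 0 UMIs in basal-like cells, Itgae had 11 and Itgb2 had 3 over all basal-like libraries, while immune cells of the endogenous libraries held Itgb2 at 157.3 and 169.5 CPM and Itgae at 93.2 and 110.2 CPM. In basal-like cells macrophage and monocyte markers summed to 2.60 and 3.31 CPM in donor-derived libraries, against 8.37 and 4.29 in the endogenous pair and 4.34 in the control.

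Smaller epithelial classes were described without tests. The 64 and 79 hillock-like cells of the endogenous libraries held Itga6 at 310.6 and 290.2 CPM, Col17a1 at 227.9 and 212.8 CPM, Itgb6 at 86.4 and 76.5 CPM and Abi3bp at 211.1 and 354.7 CPM, on days 40 and 56. Dcn was at 35.98 and 30.4 CPM in them. An unnamed epithelial cluster of 216 and 27 donor-derived cells, led by Ccl9 and Spib, held Itgb8 at 29.3 and 29.2 CPM, where donor-derived basal-like cells had 1.02 and 0.46 CPM. It held Itgav at 164.4 and 190.9 CPM and Itgb6 at 126.2 and 94.3 CPM. The 29 tuft-like cells of the day 40 endogenous library held the fibril-associated collagens Col9a3 at 153.8 CPM and Col16a1 at 74.1 CPM. Dividing-like cells held Abi3bp at 14.7 CPM in the day 40 donor-derived library and 213.3 CPM in the day 40 endogenous library (43 and 22 cells).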

How the data were processed

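Single cells from 5 mouse tracheal libraries were measured by droplet RNA sequencing. The deposited values are whole-number UMI counts per feature and barcode, per the file headers, and Cell Ranger, STARsolo and Seurat appear with the builds GRCm38 and GRCh38 in the submitters' processing notes, which give no roles. All values columns were mapped to a sample. The members and gene lists were chosen with earlier results of these data known.

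Barcodes with over 10% human UMIs, under 500 genes or over 20% mitochondrial UMIs were left out. Doublets were called with scanpy's Scrublet per library and removed, 81 in all. Clustering used 2000 variable genes without the 92 members, 30 principal components, 15 neighbours and Leiden resolution 1.0, and clusters were named from marker lists. Depth after filtering was a median of 9998 to 12785.5 UMIs per cell. Counts were summed per library and class and tested with edgeR 4.0.16 (TMM scaling, the filterByExpr filter and a robust quasi-likelihood fit), with Benjamini-Hochberg adjustment over all genes tested. SE is the log2 fold change divided by the square root of F. Printed CPM carry no TMM factor, while counts of 2-fold differences use it. Thinned shares used 5000 UMIs per cell, and a count of 0 was set to a floor of 3. Fold bounds against that floor leave out the counting error of the endogenous level. Intervals are exact, at 95%, and cover counting error only. The text names, per class and direction, the 10 called members of largest change, a set list of laminin, collagen, integrin and matrix genes whatever their values, up to 5 called genes of largest change in each partner list, and leukocyte integrins and stromal collagens. Other genes named, including the other matrix glycoproteins and those of small classes, were chosen after their values were seen.

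Per the labels, each recipient gave 1 donor-derived and 1 endogenous library, which pairs them. Deviations from the group means correlated between them at 0.318 in basal-like, 0.132 in secretory-like and 0.219 in ciliated-like cells. Alternatives were DESeq2 1.42.0, no TMM, no filter, a recipient block, other clusterings and cell filters, and each library left out. Leaving out clusters or the 2 cells with stromal markers was chosen after seeing the data. Software was Python 3.11.15, scanpy 1.11.5 and R 4.3.3. The scripts were tested on simulated data. Results for some genes are not reported here, and counts cover all genes tested.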

Additional observations from a re-analysis of the deposited data

Results flagged for a closer look

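The donor-derived over endogenous difference itself differed between basal-like and secretory-like cells for Itgb8, Lamb1, Itgb6 and Timp3, by the class-by-group term of edgeR. The basal-like minus secretory-like difference of the log2 fold changes was -3.02 ± 0.66 for Itgb8, with adjusted p = 0.0158. It was -2.78 ± 0.63 for Lamb1 (adjusted p = 0.0312), -1.07 ± 0.22 for Itgb6 (0.0124) and -0.99 ± 0.22 for Timp3 (0.0402). Over the alternatives that ended these calls, the adjusted p reached 0.77 for Itgb8, 0.0765 for Lamb1, 0.998 for Itgb6 and 0.594 for Timp3. Whether a library stands apart in its group was not tested, since no group holds the 4 libraries that such a check needs.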

How the results depend on the processing

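Of 173 alternatives to 35 summary results, 110 stayed within the bounds of the main value and 0 reversed. For the named members, 1395 of 1574 alternatives kept the side of the threshold, 111 of them with a changed sign in a value not called under either setting, 80 lost a call, 99 gained one and 0 called values changed sign. With the replicate block, calls in basal-like cells were 2003 genes and 18 members, in secretory-like cells 1801 genes and 14 members, and in ciliated-like cells 780 genes and 3 members. Without the filter on low counts, calls were 2459 genes and 24 members in basal-like, 2662 genes and 16 members in secretory-like, and 988 genes and 4 members in ciliated-like cells, and 10 members for the class difference. Leaving out 1 library each gave 297 to 2130 genes and 4 to 20 members in basal-like cells, 655 to 3036 genes and 4 to 15 members in secretory-like cells, 48 to 2202 genes and 0 to 7 members in ciliated-like cells, and 4 to 14 members for the class difference. In ciliated-like cells DESeq2 called 1 member, and 4 were called with doublets kept. For the class difference, 1 member was called by DESeq2 and 1 at a mitochondrial limit of 10%, 2 with doublets kept, 2 without cluster 3, 3 without cluster 2, 9 with the members among the variable genes, 9 at resolution 0.5 and 8 at resolution 2.0. Against the control, a floor of 50 CPM gave 4 members in donor-derived and 0 in endogenous basal-like cells, 3 in donor-derived secretory-like cells, and 0 in donor-derived and 1 in endogenous ciliated-like cells. A floor of 10 CPM gave 3 in endogenous basal-like, 9 in donor-derived secretory-like and 6 in donor-derived ciliated-like cells, and resolution 0.5 gave 2 in endogenous basal-like cells. Between the days, endogenous basal-like cells gave 1 member at resolution 0.5 and 1 at 2.0, Chad in both, and 1 without the cells with stromal markers, Itgb8. Endogenous secretory-like cells gave 0 at resolution 0.5 and 0 at 2.0, and donor-derived secretory-like cells 0 at 2.0. Unthinned, the share of secretory-like cells with a UMI of Chad was 0.917% in the day 40 donor-derived, 64.1% and 64.6% in the endogenous and 54.7% in the control library. That of basal-like cells for Abi3bp was 3.46% in the day 56 donor-derived, 95.6% in the day 40 endogenous and 95.95% in the control library, and for Col4a4 40.8% and 53.1% in the donor-derived libraries. Without TMM the median log2 difference of all genes stood at 0.302 in secretory-like, 0.126 in basal-like, 0.072 in ciliated-like cells and -0.172 for the class difference. Calls then split 660 higher and 655 lower in basal-like cells (492 and 775 with TMM) and 1244 higher and 592 lower in secretory-like cells (710 and 888 with TMM). The cause of these shifts was not tested. Depth limits members of a few UMIs per library, and 2 libraries a group limit every test.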
